A study of Mus musculus with 2 samples.

Results

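The immediate early transcription factors Nr4a1, Nr4a2, Nr4a3, Egr1, Egr2 and Egr3, which antigen receptor signals induce in lymphocytes, were followed in single spleen cells of the mouse. The 6 genes were taken by symbol from the 32285 features of the gene table, and their transcripts were counted in each class of cells. They were chosen because earlier results of these libraries showed that they differ, so their values describe the libraries and support nothing further. Transcript 3' ends were sequenced from droplets, and unique molecular identifiers (UMIs) count each captured RNA molecule once. One library came from a mouse of genotype M694I knock-in and the other from a mouse of genotype M694I WT, as the labels put it. The series deals with Mefv, the gene of the inflammasome sensor pyrin. Both spleens were disrupted mechanically and their red cells lysed, and the mice were age-matched and housed free of specific pathogens. The labels name no age, other allele, Cre or treatment, and the titles name 1 mouse per library. The M694I change itself cannot be seen in UMI counts.

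NR4A proteins are orphan nuclear receptors that bind DNA and act without a known natural ligand at their receptor pocket. Nr4a1, also called Nur77, is a common reporter of recent antigen receptor signals in B and T cells, and NR4A factors restrain the activation of both and take part in T cell exhaustion. EGR proteins are zinc finger factors downstream of the Ras and MAP kinase pathway, and Egr2 and Egr3 limit T cell activation and help to set anergy. Egr1 answers growth factor and antigen receptor signals within minutes. All are also induced by handling and by other stimuli, so a transcript of these genes is not by itself a sign of antigen.

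There were 25193274 UMIs over 9000 barcodes in the knock-in and 32797052 UMIs over 10449 barcodes in the wild-type library. After filters, 8410 knock-in cells with a median of 2023 UMIs and 9501 wild-type cells with a median of 2526 UMIs were kept. The median mitochondrial share was 3.99% in the knock-in and 4.68% in the wild-type library. The same barcode sequence occurred in both libraries 27 times. Each genotype has 1 library and so no replicate, test or p-value: each value compares these libraries, and genotype cannot be told apart from mouse, library or preparation. Intervals are at 95% and cover counting error only, and they are too narrow where a few cells hold many UMIs of a gene. Cells were assigned to classes by marker gates, which gave 5606 knock-in and 6510 wild-type B cells, 1824 and 1925 T cells, 176 and 336 NK cells, and 181 and 197 monocytes. Of the B-, T- and NK-gated cells, 96.7%, 98.4% and 99.6% lay in a cluster of the same name, and of the monocyte-gated cells 76.7%. The gates also held transcripts of other classes. The 6 neutrophil markers summed to 208 CPM (UMIs of a gene scaled to the same total in every class) in knock-in and 24.6 CPM in wild-type B-gated cells, with 6 of 6 detected in both, and the 6 plasma cell markers to 1148 and 404 CPM, with 6 and 5 detected. Their part in the results was not tested.

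Nr4a1 lies on chromosome 15 from 101254269 to 101274795 on the plus strand of GRCm38 (mm10), per GENCODE M21, with 3 coding transcripts of 3 to 8 exons. Nr4a2, on the minus strand of chromosome 2, spans 57106830 to 57124003, and Nr4a3, on the plus strand of chromosome 4, spans 48045153 to 48086447. No other annotated gene overlaps them.

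The promoters of the 3 Nr4a genes are set side by side because Nr4a1 and Nr4a3 stood furthest apart in the comparison of the libraries. Each window runs from 250 bases before to 50 bases after the RefSeq start, read 5' to 3' along the gene on GRCm38.p6. They are chr15:101266596-101266895 on the plus strand for Nr4a1, chr2:57123954-57124253 on the minus strand for Nr4a2 and chr4:48045055-48045354 on the plus strand for Nr4a3. The listed start of Nr4a1 lies inside the annotated span of the gene. Capitals mark the short cAMP response element (short CRE), the letters CGTCA or their reverse complement TGACG, which CREB family factors are known to bind.
Nr4a1: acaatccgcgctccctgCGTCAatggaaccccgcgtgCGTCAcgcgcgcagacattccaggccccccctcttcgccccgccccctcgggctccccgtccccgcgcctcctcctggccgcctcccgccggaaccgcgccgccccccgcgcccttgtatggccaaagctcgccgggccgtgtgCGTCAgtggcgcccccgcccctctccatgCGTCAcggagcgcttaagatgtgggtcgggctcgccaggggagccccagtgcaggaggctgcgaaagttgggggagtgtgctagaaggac
Nr4a2: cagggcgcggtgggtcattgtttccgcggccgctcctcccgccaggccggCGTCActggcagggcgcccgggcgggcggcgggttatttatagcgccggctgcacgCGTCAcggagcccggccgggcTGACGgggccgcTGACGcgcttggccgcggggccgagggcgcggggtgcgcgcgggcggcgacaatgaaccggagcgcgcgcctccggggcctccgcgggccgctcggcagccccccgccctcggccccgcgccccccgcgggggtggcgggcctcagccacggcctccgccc
Nr4a3: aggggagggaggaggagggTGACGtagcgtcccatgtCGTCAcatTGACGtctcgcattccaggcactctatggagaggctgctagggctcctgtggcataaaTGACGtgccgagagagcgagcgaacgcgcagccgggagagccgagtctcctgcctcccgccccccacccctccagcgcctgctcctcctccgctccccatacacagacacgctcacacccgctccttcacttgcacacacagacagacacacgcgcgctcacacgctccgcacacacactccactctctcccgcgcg
Each of the 3 windows held 4 short CREs. Their first bases lay at -233, -213, -69 and -40 from the start of Nr4a1, at -200, -144, -123 and -111 from that of Nr4a2, and at -231, -213, -205 and -147 from that of Nr4a3. Of 32851 mouse promoter windows of this length, 20.8% held at least 1 short CRE and 0.231% held at least 4. The full palindrome TGACGTCA, which would overlap a short CRE, was in none of the 3 windows and in 1.79% of all windows. The Nr4a1 window also held 1 EGR motif (GCGGGGGCG or GCGTGGGCG, either strand) at -60, found in 3.47% of all windows. The NBRE motif of NR4A proteins (AAAGGTCA, in 1.51% of windows), the AP-1 motif (TGANTCA, in 7.81%) and the CArG box of serum response factor (in 1.63%) were searched on both strands and were not in these 3 windows. Egr2 has 5 listed starts. Of these windows, 4 held a CArG box and 3 held 2 short CREs each. Those 3 windows, which begin at 67537619, 67537620 and 67537680 on chromosome 10, overlap. Their CArG box and their 2 short CREs are the same sites, counted in each window. A match says only that these letters stand in the window.

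The order of the classes differed between the libraries for Nr4a1 and Egr1. The orders given here leave out the dendritic-, macrophage- and neutrophil-gated cells, which were few. Nr4a1 was highest in NK cells, at 395 CPM (333 to 464) in the knock-in library, where 333 CPM (291 to 380) in monocytes overlapped it, followed by 269 CPM (261 to 278) in B cells and 141 CPM (131 to 151) in T cells. In the wild-type library Nr4a1 was highest in monocytes, at 332 CPM (296 to 371), then 243 CPM (236 to 250) in B cells, 221 CPM (191 to 255) in NK cells and 134 CPM (125 to 143) in T cells. B and NK cells overlapped there, whereas in the knock-in library NK cells lay above B cells without overlap. Plasma cells had the least Nr4a1, with 22.8 CPM (16.0 to 31.4) in 126 knock-in cells and 53.6 CPM (32.7 to 82.8) in 35 wild-type cells.

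Nr4a2 and Nr4a3 shared a pattern that differed from that of Nr4a1. Nr4a2 reached 327 CPM in knock-in and 428 CPM in wild-type NK cells, 155 and 154 CPM in monocytes, 135 and 126 CPM in T cells, and 32.2 and 44.4 CPM in B cells. Monocytes and T cells overlapped in both libraries. Nr4a3 had the same leading class, with 234 CPM (187 to 289) in knock-in and 323 CPM (286 to 363) in wild-type NK cells. It came to 118 and 192 CPM in T cells, 55.8 and 130 CPM in monocytes, and 22.0 and 36.5 CPM in B cells. None of these 4 classes overlapped its neighbour for Nr4a3 in either library.

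The 3 Egr genes lie on plus strands in GRCm38 and overlap no other annotated gene: Egr1 on chromosome 18 from 34859823 to 34864984, Egr2 on chromosome 10 from 67535475 to 67542188 and Egr3 on chromosome 14 from 70077203 to 70082614. Egr3 separated B from T cells in both libraries. Egr3 stood at 67.5 CPM (63.3 to 71.8) in knock-in and 67.0 CPM (63.4 to 70.7) in wild-type B cells, against 8.87 and 15.3 CPM in T cells. Egr1 came to 34.8 CPM in knock-in and 46.5 CPM in wild-type B cells, and to 33.6 and 56.7 CPM in T cells. B and T cells overlapped for Egr1 in the knock-in library, while in the wild-type library T cells lay higher without overlap. Of the classes ordered, its highest was the plasma gate, at 67.7 and 142 CPM, but 1 cell held 23.6% of those UMIs in the knock-in and 50.9% in the wild-type library. Egr2 had 12.5 CPM in knock-in and 13.4 CPM in wild-type B cells, 9.24 and 11.7 CPM in T cells and 19.1 and 22.2 CPM in NK cells, where 7 and 19 UMIs were counted. Neutrophil-gated cells, 51 in the knock-in and 118 in the wild-type library, gave 15 and 53 Nr4a1 UMIs (143 and 240 CPM) and 7 and 25 Nr4a3 UMIs (66.7 and 113 CPM). The 30 and 32 dendritic-gated and 18 and 23 macrophage-gated cells were too few to compare. The macrophage gate gave 501 and 238 CPM of Nr4a1, 283 and 475 CPM of Nr4a3 and 196 and 238 CPM of Egr1, at 9 to 23 UMIs each. A level here is the sum over a gate, in which more cells with the transcript and more transcript per cell both count.

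**Figure D1:**
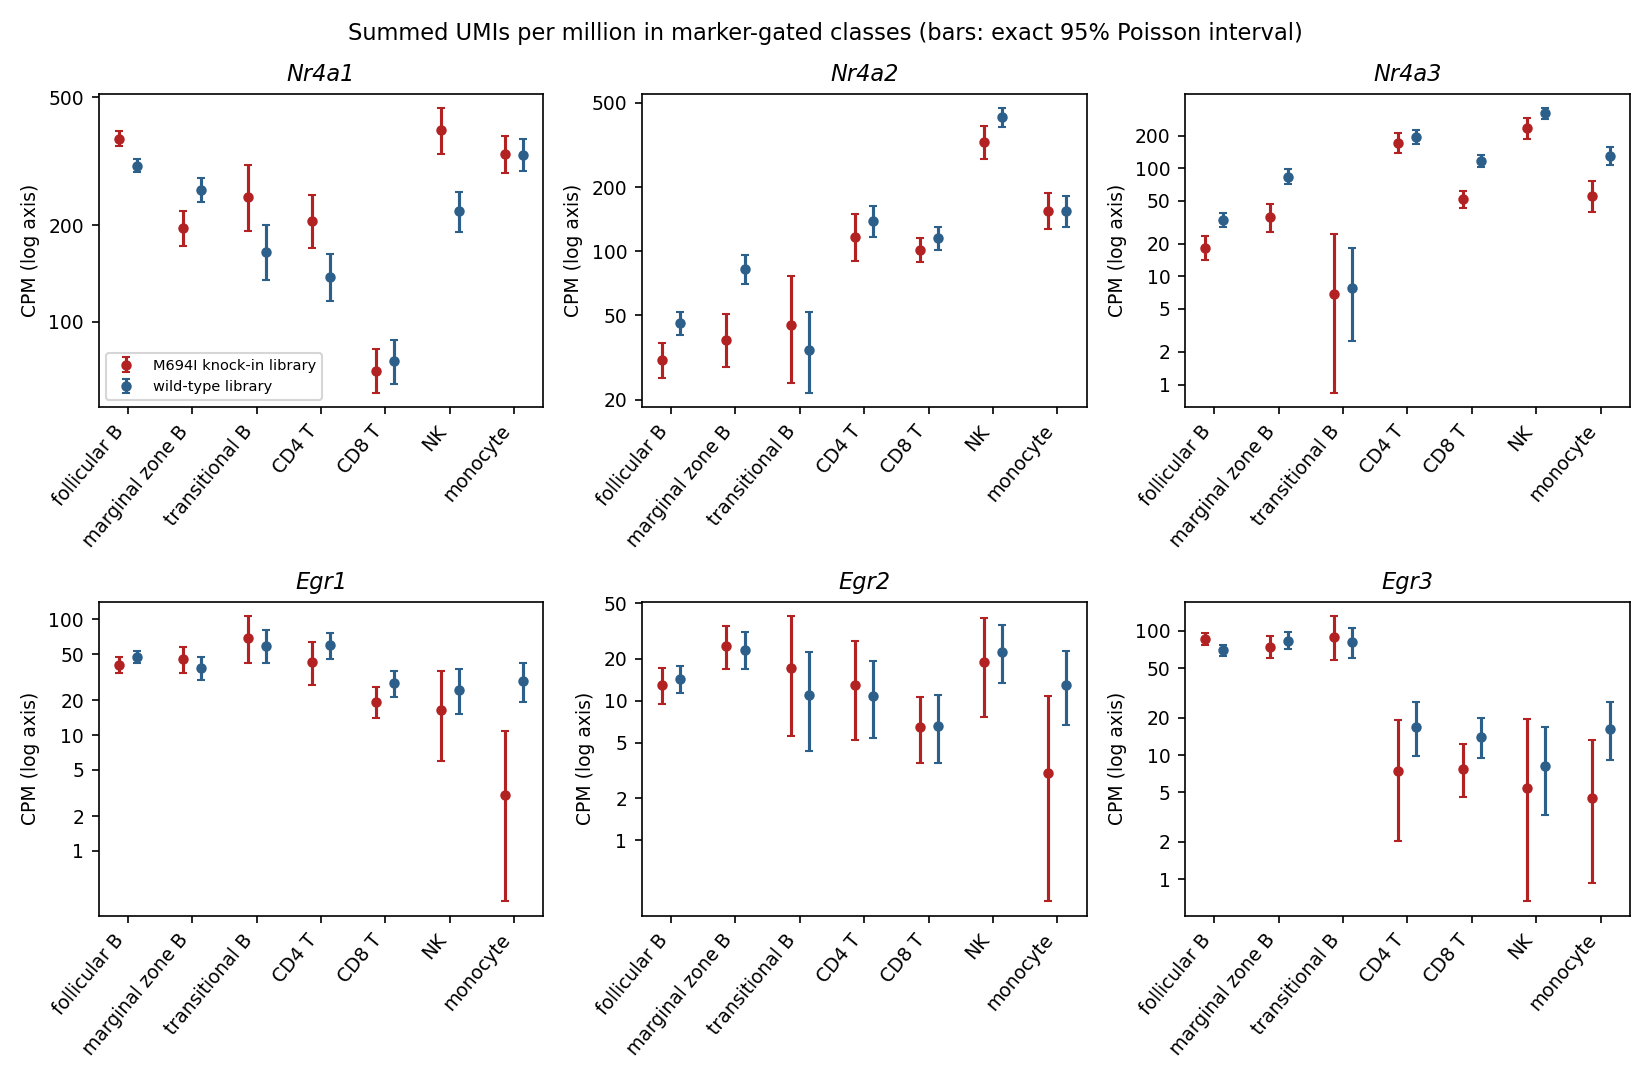
Level of each gene in CPM, on a log axis, in 7 marker-gated classes of the knock-in (red, left) and wild-type (blue, right) library, with exact 95% Poisson intervals. Nr4a3 lies lower in the knock-in library in each class drawn, while Nr4a1 lies higher in follicular B, transitional B, CD4 T and NK cells and lower in marginal zone B cells.

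Within B cells the sub-gates told the genes apart further. Nr4a1 had 372 CPM in knock-in and 307 CPM in wild-type follicular B cells (1532 and 1995 cells), 196 and 258 CPM in marginal zone B cells (247 and 392), and 245 and 165 CPM in transitional B cells (120 and 202). Nr4a3 showed another order: marginal zone B cells had 35.2 CPM in the knock-in and 83.9 CPM in the wild-type library, follicular B cells 18.5 and 33.2 CPM, and transitional B cells 6.90 and 7.80 CPM from only 2 and 5 UMIs. Among T cells, Nr4a1 had 207 CPM in knock-in and 138 CPM in wild-type CD4 T cells (178 and 251 cells), against 70.5 and 75.4 CPM in CD8 T cells (637 and 501). The 27 and 23 Foxp3+ T cells held 10 and 31 Nr4a1 UMIs, 12 and 11 Nr4a3 UMIs, and 1 and 21 Egr1 UMIs.

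The knock-in and wild-type libraries were then compared gene by gene. Log2 ratios are knock-in over wild-type, and a gene was called past a limit of 0.32 in size, or 1.25-fold. Over all kept cells, Nr4a3 was the member with the largest difference, at 52.6 CPM in the knock-in and 93.4 CPM in the wild-type library (log2 ratio -0.83, -0.93 to -0.73). Egr1 had 36.1 and 49.4 CPM (-0.45, -0.58 to -0.33) and Nr4a2 had 65.8 and 83.0 CPM (-0.33, -0.43 to -0.24). Nr4a1 had 223 and 216 CPM, a log2 ratio of 0.05 (-0.00 to 0.10). Egr2, at 11.2 and 13.7 CPM (-0.29), and Egr3, at 45 and 49.8 CPM (-0.15), stayed within the limit. Under 3 of 11 alternatives Egr2 was past it on the lower side. Of the 6 members, 0 were past the limit on the higher and 3 on the lower side, beside 12.5% and 22.3% of the 7075 genes measured. The Nr4a2 call was lost under 6 of 11 alternatives, among them TMM factors (-0.28) and cells thinned to 1000 UMIs (-0.03). Scaling by TMM factors, which shift ratios by 0.06, would call 1163 genes higher and 1182 lower in place of 881 and 1576. These shares are given as background, since the members were chosen on this contrast.

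In B cells Nr4a3, whose induction in T cells depends on NFAT, had 316 UMIs in knock-in and 715 UMIs in wild-type cells, or 22.0 and 36.5 CPM (log2 ratio -0.73, -0.93 to -0.54). The transcript was found in 4.66% of knock-in and 7.97% of wild-type B cells. Nr4a2 and Egr1 were also past the limit on the lower side, with ratios of -0.46 (-0.63 to -0.30) and -0.42 (-0.58 to -0.26). Nr4a1, at 269 and 243 CPM, had a ratio of 0.15 (0.09 to 0.21), above 0 in counting error but within the limit. Thinned to 1000 UMIs, or with each cell weighted equally, Nr4a1 was past it, at 0.36 and 0.37. Egr3 was level, with 971 knock-in and 1311 wild-type UMIs (0.01, -0.11 to 0.13), and Egr2 had a ratio of -0.10 (-0.38 to 0.18). The calls were 0 higher and 3 lower of 6, beside 15.0% and 19.3% of 6906 genes.

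In T cells Nr4a3 was again lower in the knock-in library, with 628 UMIs against 1320 in the wild-type library, or 118 and 192 CPM (-0.70, -0.84 to -0.56). A Nr4a3 UMI was found in 23.5% of knock-in and 38.0% of wild-type T cells. Egr1, at 33.6 and 56.7 CPM, had a ratio of -0.75 (-1.02 to -0.50). Egr3 had 47 and 105 UMIs (-0.79, -1.32 to -0.28), and Egr2 had 49 and 80 UMIs (-0.33, -0.88 to 0.20). The Egr2 interval includes 0. Nr4a1 and Nr4a2 lay within the limit in T cells, at 0.07 (-0.07 to 0.21) and 0.09 (-0.06 to 0.23). The calls were 0 higher and 4 lower of 6, beside 18.1% and 13.8% of 6793 genes, or 1230 higher and 939 lower (950 and 1202 with TMM factors).

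The classes differed in which member stood apart. CD8 T cells had 52.0 CPM of Nr4a3 in the knock-in and 117 CPM in the wild-type library (-1.16, -1.49 to -0.85), whereas CD4 T cells had 171 and 196 CPM (-0.19, -0.57 to 0.17). T cells that neither gate took, 1009 and 1173, had a ratio of -0.46 (-0.64 to -0.29). Clusters did not repeat this contrast for Nr4a3. Cluster 4, led by Cd8b1 and Cd8a, had -0.72, cluster 5, led by Igfbp4 and Lef1, -0.74, and cluster 8, led by Tnfrsf4, -0.39. Of 5 members above the filter on low values, 0 were past the limit higher and 3 lower in CD8 T cells, beside 19.5% and 18.7% of genes, and 1 higher and 2 lower in CD4 T cells, beside 30.2% and 22.4%. The member higher in CD4 T cells was Nr4a1, at 207 and 138 CPM (0.59, 0.21 to 0.96). The lower ones there were Egr1 (-0.49, -1.25 to 0.23) and Egr3 (-1.17, -3.20 to 0.45), the latter from 4 and 17 UMIs. In CD8 T cells the lower ones besides Nr4a3 were Egr1 (-0.54, -1.13 to 0.04) and Egr3 (-0.86, -1.79 to 0.03). All of these Egr intervals include 0.

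NK cells had 145 Nr4a1 UMIs in the knock-in and 189 in the wild-type library, or 395 and 221 CPM (0.84, 0.52 to 1.16). The transcript was found in 29.0% of knock-in and 27.4% of wild-type NK cells at unequal depth (medians of 1896.5 and 2238.5 UMIs), and in 21.1% and 13.3% once each cell was thinned to 1000 UMIs. One knock-in cell held 13.1% of the UMIs. In the same NK cells Nr4a2 was lower in the knock-in library (-0.39, -0.70 to -0.09), as was Nr4a3 (-0.46, -0.83 to -0.11). Thinned, both were within the limit with intervals that include 0, at -0.11 (-0.59 to 0.35) for Nr4a2 and -0.20 (-0.74 to 0.32) for Nr4a3. Calls among the 5 NK members above the filter were 1 higher and 3 lower, beside 21.1% and 30.7% of genes. Besides Nr4a2 and Nr4a3, the lower calls took in Egr1, with 6 and 21 UMIs and an interval that includes 0 (-0.59, -2.19 to 0.77).

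Monocytes had level Nr4a1, at 333 and 332 CPM (0.01, -0.25 to 0.26), and level Nr4a2, at 155 and 154 CPM (0.01, -0.37 to 0.39). Nr4a3 came to 37 UMIs in knock-in and 121 UMIs in wild-type monocytes (-1.23, -1.80 to -0.68). In the monocyte cluster in place of the gate it had 53.2 and 75.5 CPM (-0.50, -1.18 to 0.15), an interval that includes 0. The 6 dendritic cell markers summed to 308 CPM in knock-in and 120 CPM in wild-type monocyte-gated cells. The B cell markers came to 130 and 73.3 CPM and those of macrophages to 81.4 and 46.4 CPM. On the other side, the neutrophil markers came to 45.2 and 268 CPM and the T cell markers to 7.54 and 44.2 CPM. The part of these transcripts was not tested. Egr1 gave 2 UMIs in knock-in and 27 UMIs in wild-type monocytes, of which 1 wild-type cell held 29.6%. Of 4 members above the filter, 0 were past the limit higher and 2 lower, beside 23.9% and 27.2% of genes.

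In follicular B cells Nr4a1 had a ratio of 0.28 (0.18 to 0.38) and Egr3 of 0.31 (0.09 to 0.53), both just inside the limit, and Nr4a3 of -0.84 (-1.27 to -0.43). Thinned to 1000 UMIs, Egr3 was past it there, at 0.51 (0.16 to 0.86). Among classes of at least 100 cells per library that share no cell, marginal zone B cells were the only one where Nr4a1 was past the limit on the lower side (-0.40, -0.62 to -0.18), beside Nr4a2 (-1.11, -1.60 to -0.64) and Nr4a3 (-1.25, -1.76 to -0.77). Marginal zone B cells were deep, with medians of 4217 and 4530.5 UMIs, against 1845 and 2364 UMIs in follicular B cells. B cells with 4000 UMIs or more had a Nr4a1 ratio of -0.50, and the part of depth was not tested. When marginal zone B cells were thinned, the intervals of all 3 Nr4a genes included 0. The values were 0.14 (-0.30 to 0.57) for Nr4a1, -0.38 (-1.42 to 0.58) for Nr4a2 and -1.14 (-2.48 to 0.03) for Nr4a3. Transitional B cells had more Nr4a1 in the knock-in library (0.57, 0.11 to 1.01). Calls were 0 higher and 2 lower of 6 in follicular B cells, beside 16.6% and 23.0% of genes. They were 0 and 3 of 6 in marginal zone B cells, beside 24.7% and 28.3%. Of the 4 members above the filter in transitional B cells, 2 were past the limit on the higher side and 0 on the lower, beside 23.6% and 30.4%. Besides Nr4a1 this was Nr4a2, with 13 and 22 UMIs and an interval that includes 0 (0.39, -0.73 to 1.44).

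**Figure D2:**
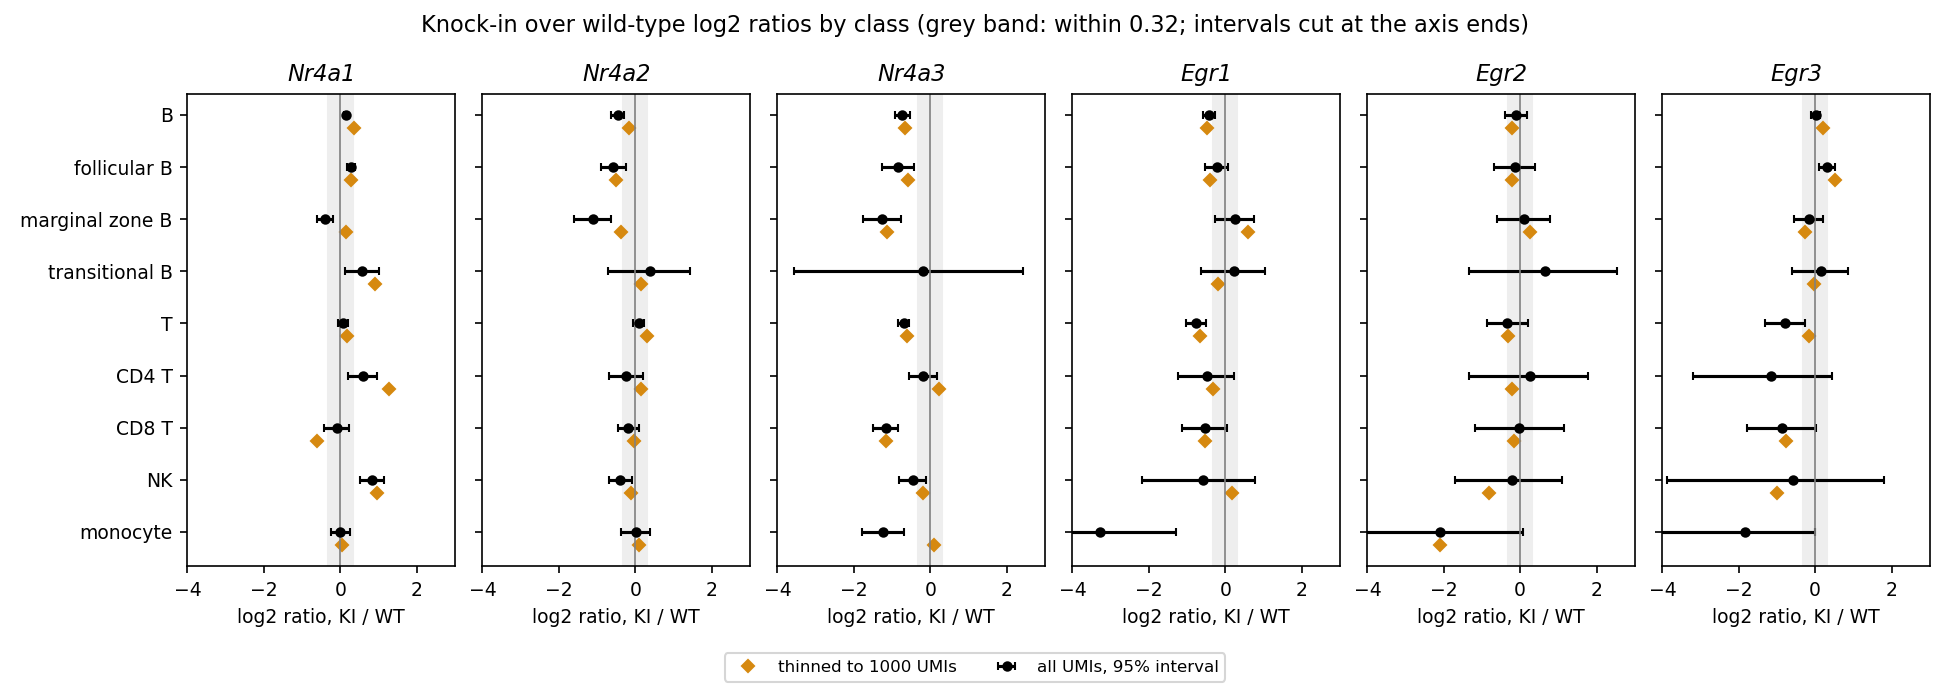
Log2 ratio of knock-in over wild-type CPM for each gene, by class from top to bottom, with all UMIs (black, exact 95% interval) and with cells thinned to 1000 UMIs (orange, left out where a library had 0 UMIs or both had 3 or fewer). The Nr4a3 values lie left of 0 in each class with all UMIs, from -0.18 in transitional to -1.25 in marginal zone B cells, while those of Nr4a1 run from -0.40 to 0.84.

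Over the 9 classes of at least 100 cells per library that share no cell, the unassigned B and T cells among them, Nr4a3 was below 0 in 9, with an interval wholly below 0 in 7. Nr4a1 was above 0 in 7 of the 9 and had an interval wholly above 0 in 6 and wholly below 0 in 1. Nr4a2 was below 0 in 6 and Egr1 in 7, with intervals wholly below 0 in 4 and 3. For Egr2 every interval included 0, and for Egr3 1 lay above and 1 below. With cells thinned to 1000 UMIs, Nr4a3 was below 0 in 6 and above 0 in 2 of the 8 classes that gave a ratio (CD4 T cells, 0.22, and monocytes, 0.10), with an interval wholly below 0 in 3. Thinned Nr4a1 was above 0 in 8 of 9, with an interval wholly above 0 in 5. For Nr4a2 the thinned ratio was below 0 in 4 and above 0 in 5 of 9. Its interval lay wholly below 0 in 0 and wholly above 0 in 1. That of Egr1 was below 0 in 7 of 9 when thinned, with an interval wholly below 0 in 2. The share of Nr4a3-positive cells was lower in the knock-in library in 9 of 9 classes with all UMIs and in 7 of 9 when thinned. It was higher when thinned in CD4 T cells, at 17.1% and 13.9%, and in transitional B cells, at 0.885% and 0.50%, or 1 UMI in each library.

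Because the scaling by total UMIs cancels between genes of the same cells, the mix within each family was also taken. In B cells 83.3% of knock-in Nr4a UMIs (82.2% to 84.3%) and 75.0% of wild-type Nr4a UMIs (73.9% to 76.1%) came from Nr4a1. Nr4a3 made up 6.78% (6.08% to 7.54%) and 11.3% (10.5% to 12.1%). In T cells the Nr4a3 share was 30.1% (28.1% to 32.1%) in the knock-in and 42.5% (40.8% to 44.3%) in the wild-type library. These shares compare UMIs of genes that this assay may capture unequally, so only their difference between libraries is read.

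The number of Nr4a1 UMIs per Nr4a3 UMI was 12.3 in knock-in and 6.65 in wild-type B cells, 1.19 and 0.695 in T cells, 1.69 and 0.685 in NK cells, and 5.97 and 2.55 in monocytes. It was higher in the knock-in library in 9 of the 9 classes, by 1.60- to 2.46-fold, and the interval of the Nr4a3 share lay wholly under that of the wild-type library in 7. With cells thinned to 1000 UMIs it was higher in 8 of the 9, by up to 2.43-fold. Thinned monocytes had 73 Nr4a1 and 11 Nr4a3 UMIs in the knock-in and 83 and 12 UMIs in the wild-type library, or 6.64 and 6.92 Nr4a1 UMIs per Nr4a3 UMI. Plasma cells, with 3.08 and 3.33, neutrophils, with 2.14 and 2.12, and Foxp3+ T cells, with 0.833 and 2.82, did not show it, at 12 or fewer Nr4a3 UMIs in the knock-in library. Among Egr UMIs of B cells, Egr1 made up 30.3% (28.1% to 32.6%) in the knock-in and 36.6% (34.7% to 38.6%) in the wild-type library, and Egr3 58.8% and 52.8%.

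**Figure D3:**
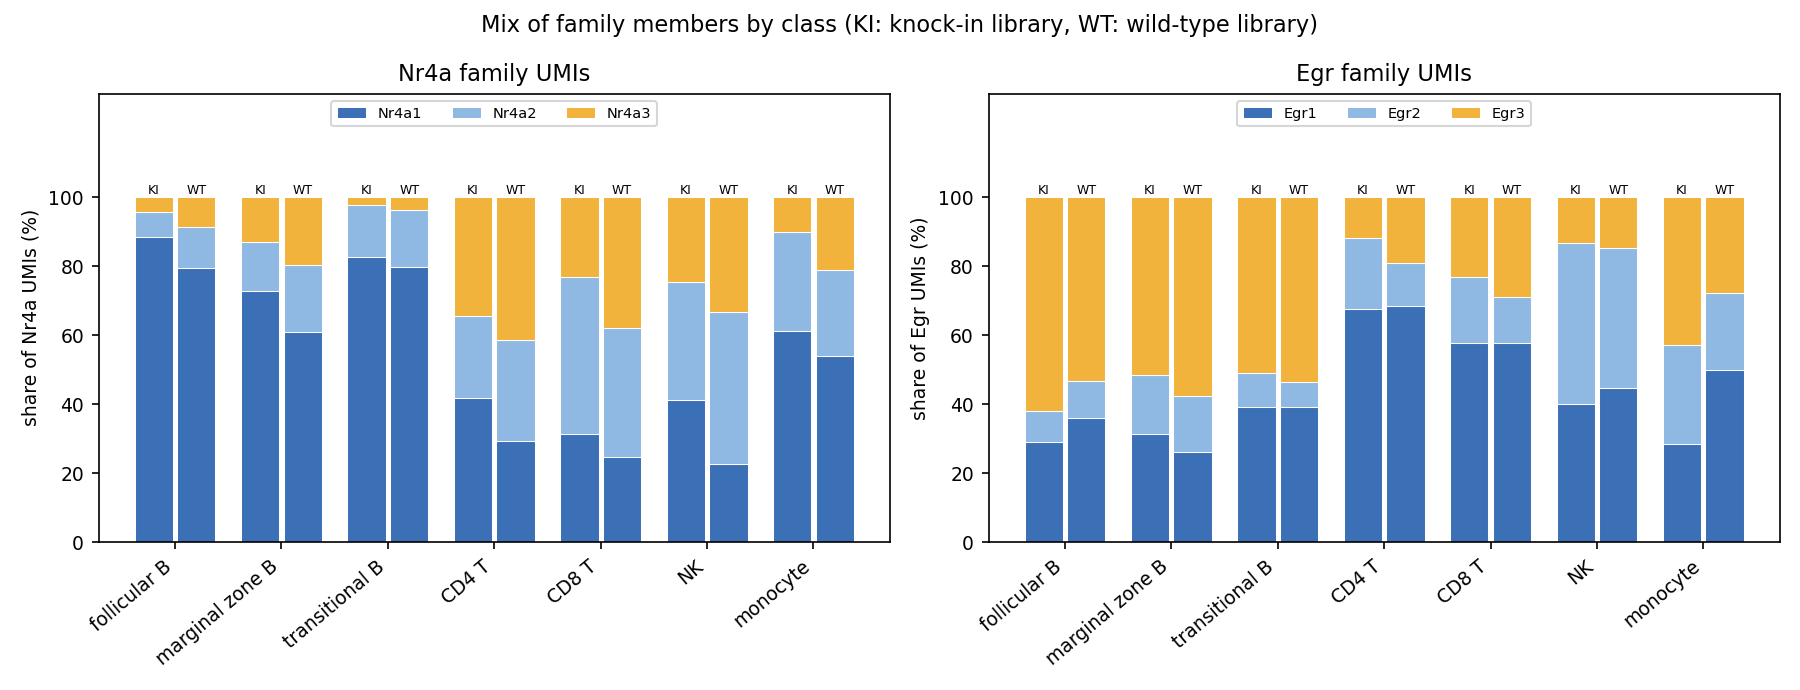
Share of each gene in the UMIs of its family, in percent, in 7 classes of the knock-in (KI, left bar) and wild-type (WT, right bar) library. The Nr4a3 segment is smaller in the knock-in bar of each class, for example 23.2% against 38.0% in CD8 T cells, and Egr3 makes up most Egr UMIs in the B cell classes of both libraries.

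Depth differed between the libraries, so each cell was also thinned to 1000 UMIs, which left out 379 knock-in and 157 wild-type cells with fewer. Thinned B cells held a Nr4a1 UMI in 21.8% of knock-in and 18.5% of wild-type cells, where the unthinned shares were 36.5% and 35.9%. Its B cell ratio was 0.36 when thinned. For Nr4a3 the thinned ratio was -0.66 in B cells and -0.60 in T cells, with shares of 1.86% and 3.0% of B cells and 10.5% and 15.3% of T cells. Other members shifted more: the thinned ratio of Nr4a2 in B cells was -0.17 (-0.45 to 0.12) and that of Egr3 in T cells -0.15 (-1.24 to 0.92). No class is known to lack these genes. The lowest class, plasma cells, had thinned Nr4a1 shares of 4.03% and 8.82% at unthinned median depths of 12234 and 8155 UMIs, against 1843 and 2356 UMIs in B cells. The marginal zone ratio of Nr4a1 was 0.14 when thinned and that of Nr4a3 in monocytes 0.10, both opposite in sign to the unthinned value. In CD4 T cells thinning gave a Nr4a1 ratio of 1.27 (0.60 to 1.96) and a Nr4a3 ratio of 0.22 (-0.46 to 0.90). In CD8 T cells it gave -0.60 (-1.28 to 0.07) for Nr4a1.

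Strata of depth set Nr4a1 apart from Nr4a3. In B cells with 1000 to under 2000 UMIs Nr4a1 had 374 CPM in 2987 knock-in and 249 CPM in 1754 wild-type cells (log2 ratio 0.58). With 2000 to under 4000 UMIs it had 282 and 258 CPM (0.13), and with 4000 UMIs or more 154 and 217 CPM (-0.50). Its direction between the libraries thus depended on the stratum, and the 189 knock-in and 47 wild-type B cells under 1000 UMIs gave -0.72. Nr4a3 was lower in the knock-in library in 3 of 3 depth strata of 1000 UMIs or more, from -0.37 to -0.91 in B cells and from -0.31 to -0.91 in T cells. It was also lower in 5 of 5 strata of mitochondrial share in both, from -0.47 to -1.48 in B cells and from -0.17 to -0.92 in T cells. Egr1 was lower in 3 of 3 depth strata and in 4 of 5 mitochondrial strata of both classes.

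**Figure D4:**
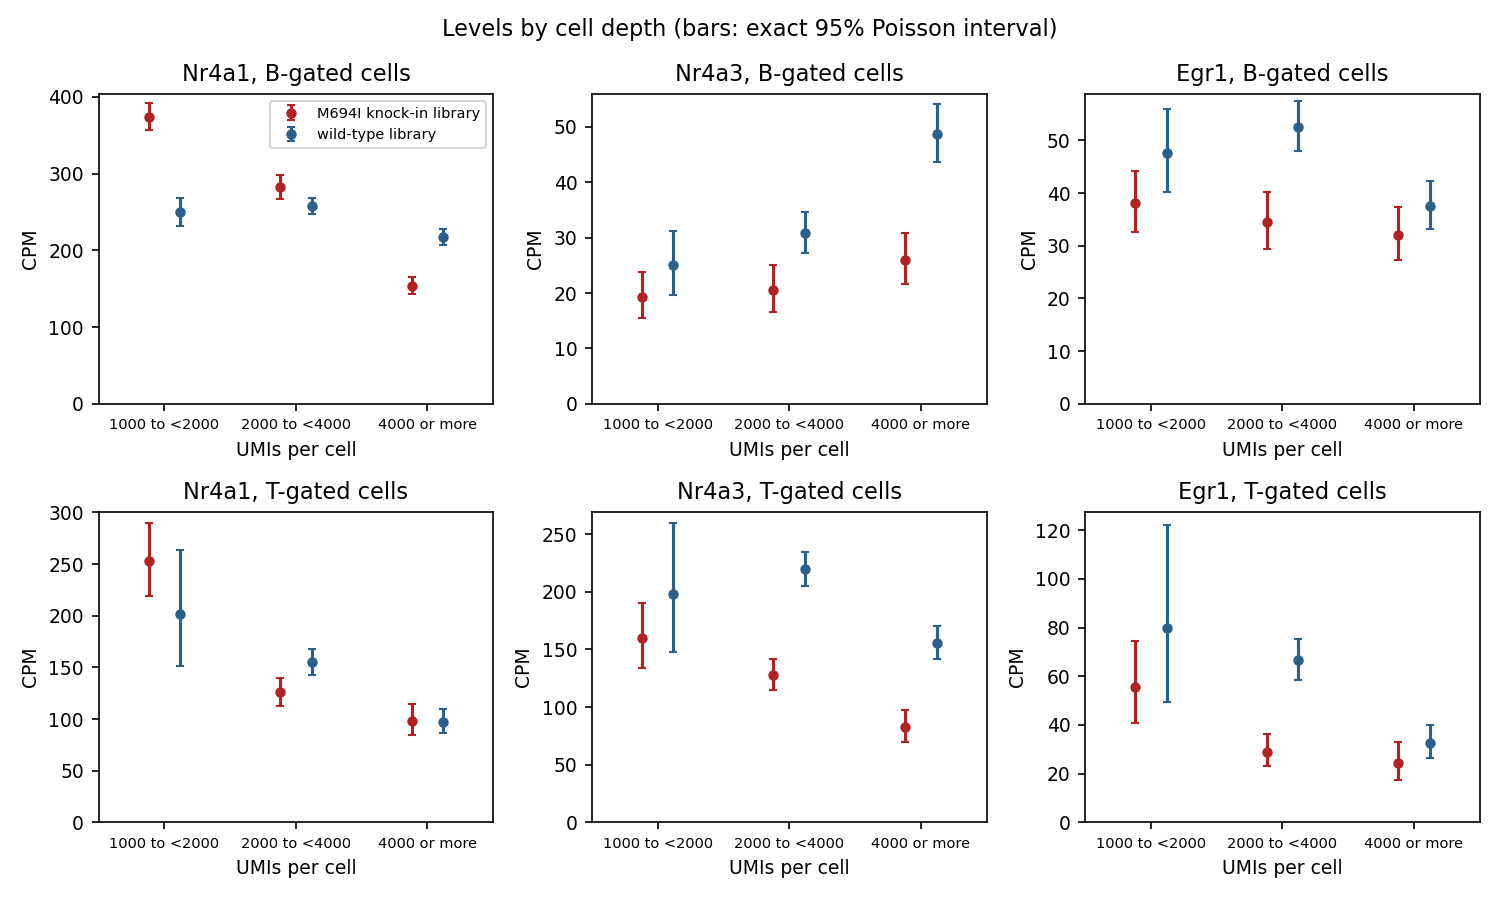
CPM of Nr4a1, Nr4a3 and Egr1 in B-gated (top) and T-gated (bottom) cells by UMIs per cell, in the knock-in (red, left) and wild-type (blue, right) library, with exact 95% Poisson intervals. In B cells the Nr4a1 points change places between the shallowest and the deepest stratum, while Nr4a3 is lower in the knock-in library in each stratum drawn.

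Clusters built on genes other than the members and the AP-1 genes gave a finer view. Of 13 clusters with at least 100 cells in each library, Nr4a3 was below 0 in 11. Egr1 and Egr2 were below 0 in 10 each, and Nr4a2 and Egr3 in 9 each, while Nr4a1 was above 0 in 8. The highest Nr4a1 level was in cluster 1, B cells led by Bcl11a, Fcer2a and Cr2, with 698 CPM in 1387 knock-in and 595 CPM in 929 wild-type cells (0.23, 0.13 to 0.33). Egr3 was also highest there, at 152 and 95.6 CPM (0.67, 0.43 to 0.91), and Nr4a3 was lower, at 24.6 and 46.9 CPM (-0.93). This cluster holds more knock-in than wild-type cells, whereas cluster 6, led by Mir155hg, Nfkbid, Icam1 and Myc, holds 338 knock-in and 916 wild-type cells. In cluster 6 Nr4a1 was level, at 337 and 322 CPM (0.07, -0.13 to 0.25), and Nr4a3 had 41.9 and 33.5 CPM (0.32, -0.26 to 0.88).

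Among the B cell clusters, Egr1 had its lowest ratio in cluster 2, led by Akap12, where it had 44.5 and 90.7 CPM (-1.03, -1.40 to -0.67). Among T cells, cluster 5, led by Igfbp4 and Lef1, genes of resting T cells, had 207 CPM of Nr4a1 in 513 knock-in and 131 CPM in 970 wild-type cells (0.66, 0.41 to 0.89). The same cluster had 133 and 221 CPM of Nr4a3 (-0.74, -1.01 to -0.48). Cluster 8, led by Tnfrsf4, Ctla4 and Ikzf2, genes of regulatory and activated T cells, had 56.8 and 121 CPM of Egr1 (-1.09, -1.52 to -0.67). The dendritic cluster, 154 knock-in and 182 wild-type cells, had 158 and 326 CPM of Nr4a3 (-1.05, -1.36 to -0.74) with level Nr4a1, at 218 and 233 CPM. With each cluster given its mean UMI share over both libraries, an alternative chosen after the data were seen, the Nr4a3 ratio was -0.65 in all cells, -0.69 in B cells and -0.60 in T cells.

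At 1000 UMIs per cell, 30.6% of knock-in and 27.8% of wild-type B cells held a UMI of at least 1 member, as did 31.8% and 33.5% of T cells, 51.2% and 51.7% of NK cells and 38.0% and 36.1% of monocytes. Most such cells showed only 1 member: 24.9% of knock-in and 22.4% of wild-type B cells. At least 2 members were seen in 5.67% and 5.38% of B cells and in 6.76% and 7.29% of T cells. In both libraries 0 cells of these 4 classes showed all 6.

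The members occurred together in B cells. For 25 ordered pairs with at least 100 cells holding the given gene, the share of cells with the other gene was higher in cells with than without the given one in 25 of 25 in each library, by 1.46- to 6.56-fold in the knock-in and 1.65- to 7.70-fold in the wild-type library. The highest ratio was within the Egr family. Among cells with Egr1, 6.34% of knock-in and 7.61% of wild-type B cells held Egr2, against 0.967% and 0.989% of cells without Egr1. Among the same cells 23.9% (17.2% to 31.8%) and 27.4% (21.3% to 34.2%) held Egr3, against 6.18% and 4.88%. Of B cells with Nr4a1, 11.6% (9.83% to 13.6%) in the knock-in and 9.20% (7.62% to 11%) in the wild-type library held Egr3. Pairs share the same cells, and B sub-classes with different levels are pooled in them.

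**Figure D5:**
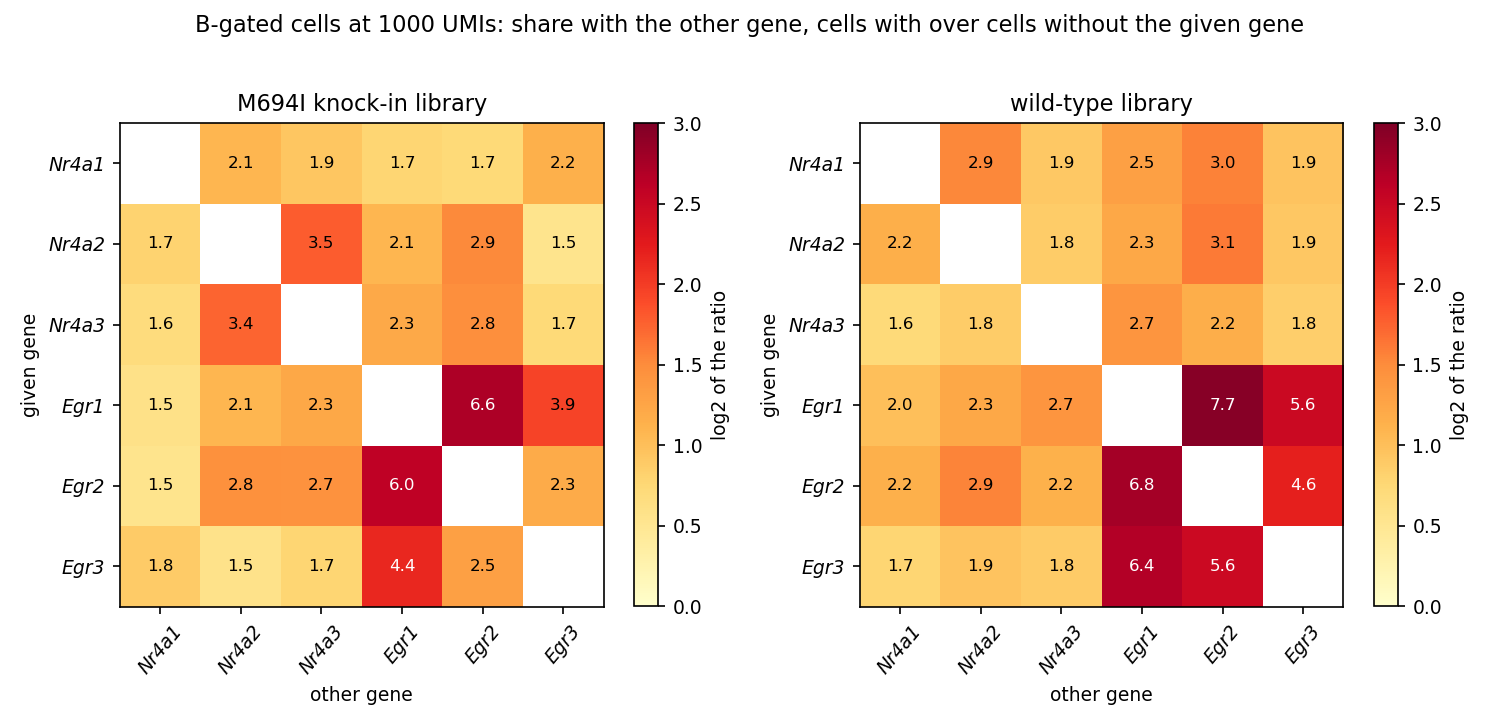
Share of thinned B cells with the other gene (columns) among cells with the given gene (rows), divided by that share among cells without it, in the knock-in (left) and wild-type (right) library; colour shows log2 of the ratio and the digits the ratio. Each ratio drawn is above 1, and the highest is that of Egr2 in cells with Egr1, 6.56 in the knock-in and 7.70 in the wild-type library.

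In T cells the median ratio was 1.45 in the knock-in and 1.52 in the wild-type library. There 11 of 15 pairs were above 1 in the knock-in and 13 of 15 in the wild-type library. The given gene was always an Nr4a gene in these T cell pairs, since too few T cells held an Egr gene. The B cell medians, 2.12 and 2.24, also cover pairs given Egr1 or Egr3, so the medians do not compare the classes. Egr1 was held by only 48 knock-in and 75 wild-type T cells. Ratios given Egr1 ran from 0.857 (Nr4a2) to 13.5 (Egr3) in the knock-in library. In the wild-type library they ran from 0.989 to 8.2 for the same genes. Nr4a1 and Egr1 went together: 8.41% of knock-in and 9.50% of wild-type T cells with Nr4a1 held Egr1, against 1.87% and 3.26% of those without. Nr4a3 was found in 19.5% (14.5% to 25.2%) and 21.5% (16.0% to 27.8%) of T cells with Nr4a1, against 9.23% and 14.5% of those without.

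Among 4428 other genes in B cells, those most enriched in cells holding a member were Fos, Rgs1, Myc, Dusp1, Ppp1r15a, Socs3, Lars2, Coq10b, Junb and Sik1, ranked by the lower ratio of the libraries. Fos, the AP-1 subunit, was held by 35.9% of knock-in and 22.5% of wild-type B cells with a member, against 16.7% and 10.6% of those with none. Myc, the growth regulator, was held by 17.5% and 15.7%, against 8.06% and 7.67%. Among 4192 genes in T cells the list was Nfil3, Itgav, Fosb, Atf3, Adora2a, Nfkbid, Phlda1, Nabp1, Bcl2a1d and Tmem65. Nfil3, a bZIP repressor, was held by 8.16% and 4.98% of T cells with a member, against 2.89% and 1.72% of those with none. Several genes of both lists, Fos, Junb, Fosb and Atf3 among them, are AP-1 or stress genes that tissue handling also induces.

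Over 9 classes in both libraries, 18 points in all that include nested classes and share their libraries, the genes whose level ran most like Nr4a1 were Lmna (Pearson r of log2(CPM + 10) 0.90), Fosb, Atp6v1f, Crlf2 and Wbp2. Those most like Egr1 were Msi2 (0.88), Hnrnpa2b1, Cep57, Atrx and Ints7. Nr4a2 and Nr4a3 ran together (0.89), while Nr4a1 had r of -0.07 with Nr4a2 and -0.16 with Nr4a3. Egr3 ran against Nr4a2 (-0.86). These coefficients describe the classes and carry no test.

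Other genes of the pathway did not share one direction with the members. The lists were drawn up with earlier results of these libraries known, and counts are set beside the shares of all genes given above. Of 22 antigen-response genes measured in B cells, 6 were past the limit on the higher and 6 on the lower side, with a median log2 ratio of 0.08 beside -0.04 over all genes. Irf4, a factor of B cell activation and plasma cell fate, was lower in the knock-in library (-0.70, -0.79 to -0.61). Ccnd2, cyclin D2, was lower too (-0.54), as was the costimulatory ligand Cd86 (-0.38). Ctla4 (1.31), the chemokine Ccl4 (0.79) and the AP-1 partner Batf (0.76) were higher. The make-up of the B cells differed between the libraries. Cluster 6, with Mir155hg and Ccnd2 among its leading genes, held 338 knock-in and 916 wild-type cells, and cluster 1 held 1387 and 929. Its part in these values was not tested.

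In T cells 14 of 29 antigen-response genes were past the limit on the higher and 3 on the lower side, with a median of 0.31 beside 0.03. The T cell classes differed in this: 21 of 30 were higher and 2 lower in CD4 T cells (median 0.62 beside 0.07), and 8 of 25 higher and 5 lower in CD8 T cells (0.06 beside 0.01). The make-up of the T cells differed too, with 415 knock-in and 291 wild-type cells in cluster 8 and 513 and 970 in cluster 5, and its part in these counts was not tested. The inhibitory receptors Lag3 and Pdcd1 had ratios of 1.32 (0.86 to 1.80) and 1.14 (0.72 to 1.56), and Spry1, an inhibitor of the MAP kinase pathway, of 0.96. Cd40lg, the T cell help ligand (-0.79), the kinase Pim1 (-0.58) and Irf4 (-0.58, -0.95 to -0.22) were lower, on the same side as Nr4a3.

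Of 11 calcineurin and NFAT genes in B cells, 1 was past the limit on the higher and 5 on the lower side. Nfatc3 had a ratio of -0.55 (-0.65 to -0.46), Nfat5 of -0.50 and the calcium sensor Stim2 of -0.43, while the calcineurin subunit Ppp3cc had 0.40. The calcium channel Orai1 had -0.04. In T cells 1 of 13 was higher, Ppp3cc (0.77, 0.40 to 1.14), and 1 lower, Nfatc3 (-0.37, -0.55 to -0.19). Nfatc2, at -0.25, and Nfatc1, at -0.22, stayed within the limit there.

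Of 16 partners and corepressors in B cells, 0 were past the limit on the higher and 8 on the lower side. Mef2d, which binds the Nr4a1 promoter in T cells, had 87.5 CPM in the knock-in and 125 CPM in the wild-type library (-0.51, -0.61 to -0.42). Creb1 (-0.50) and Sp1 (-0.48) were lower too, and Rxrb, a receptor partner, was at -0.07, Hdac7 at -0.07 and Ncoa3 at -0.03. In T cells 3 of 17 were higher and 4 lower. Srf, serum response factor, which drives the Egr genes, had 12.8 and 8.16 CPM (0.65, 0.12 to 1.19), Mef2c 0.59 and Ncoa1 0.41, while Hdac5 had -0.53, Ncoa2 -0.52 and Mef2d -0.46.

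The AP-1 and dissociation genes, induced by the same stimuli and by tissue handling, ran higher in the knock-in library in B, T and NK cells. In B cells 9 of 21 were past the limit on the higher and 1 on the lower side (median 0.23), in T cells 8 and 1 of 20 (0.27), and in NK cells 13 and 0 of 20 (0.50). Marginal zone B cells had 3 higher and 5 lower of 20, and monocytes 4 and 9 of 23. Fos had 361 CPM in knock-in and 203 CPM in wild-type B cells (0.83, 0.77 to 0.89) and 262 and 169 CPM in T cells (0.63, 0.52 to 0.75). Jun (0.62) and Jund (0.51) were higher in T cells. Hspa1a had the highest ratio in B cells, 2.34, but 1 knock-in cell held 55.1% of its UMIs, and 1 such cell held 19.0% of those of Dnajb1 (0.97). Fosl2 was lower in both classes (-0.49 and -0.50), and Zfp36 and Nfkbia stood at -0.22 and -0.19 in B cells and Hsp90aa1 and Zfp36 at -0.13 and 0.00 in T cells. The summed level of the list was 11930 and 9670 CPM in B cells and 10573 and 8320 CPM in T cells. It lay on the other side from Nr4a3 and Egr1, and its part in the member values was not tested.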

How the data were processed

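Droplet 3' libraries (10x chemistry version 3.1, about 10000 cells targeted) were made from 1 M694I knock-in and 1 wild-type spleen. The deposited values are raw UMI counts per gene and barcode, and per the file headers the authors counted them with version 6.1.2 of Cell Ranger. Per the submitters' processing notes, version 7.1.0 of Cell Ranger, version 5.0.3 of Seurat and the mm10 build were used. The annotation, and how barcodes were chosen, were not given in the sources used here.

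Kept cells had 500 or more UMIs, 200 or more detected genes and no more than 10% mitochondrial UMIs, and Scrublet calls were removed (173 knock-in and 232 wild-type barcodes, 2.02% and 2.38%, at an expected rate of 0.08). A cell entered the class with most detected markers of 6, with at least 2 markers and a lead of at least 1. The marginal zone gate took B cells with at least 2 of Cr2, Cd1d1, Dtx1, S1pr3 and Cd9 and no Fcer2a, Cd93 or Vpreb3. The transitional gate required Cd93 and the follicular gate Fcer2a without Cd93. Both allowed at most 1 marginal zone marker. T cell sub-gates used Cd4, Cd8a, Cd8b1 and Foxp3. UMIs were summed per library and class and scaled to CPM. Genes with a mean of at least 10 CPM and at least 20 UMIs were compared, without a test, at a log2 limit of 0.32. Intervals are exact (Poisson, Clopper-Pearson, or binomial conditional on the total), and a count of 0 allows up to 3 counts. Leiden clusters used 2000 variable genes without the members and the AP-1 genes, and 30 components. The log2 ratio and its interval were checked on simulated counts, and the thinning on kept cells of these libraries. Of the feature IDs, 32158 of 32285 (99.6%) matched GENCODE M21, and RefSeq promoter windows were printed or counted for 4 of the 6 members.

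The members and lists were chosen with earlier results of these data known. Named are all 6 members in every class; of each other list, the 3 highest and 3 lowest ratios in B and T cells; the 5 genes most correlated with Nr4a1 and with Egr1 over classes; and the 10 genes most co-detected in B and in T cells among those in at least 2% of cells. Predicted, mitochondrial, ribosomal, sex-linked and receptor segment genes were not named. Alternatives covered cell filters, doublets, thinning, scaling (TMM, edgeR 4.0.16 in R 4.3.3), cell weights, gates and class mix, and 1 more, with each cluster given its mean UMI share over both libraries, was chosen after seeing the data. Python 3.11.15, scanpy 1.11.5, scipy 1.17.1, leidenalg 0.10.2 and matplotlib 3.10.9 were used.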

Additional observations from a re-analysis of the deposited data

Results flagged for a closer look

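Nr4a1 lay on opposite sides of 0 in different classes, with intervals that exclude 0. Its log2 ratio of knock-in over wild-type was 0.84 in NK cells, 0.57 in transitional B cells and 0.59 in CD4 T cells, against -0.40 in marginal zone B cells. Nr4a2 did so too, at 0.39 in T cells without a CD4 or CD8 gate, against -0.46 in B cells, -0.39 in NK cells, -0.57 in follicular B cells and -1.11 in marginal zone B cells. The difference between classes was not tested, since each class has 1 library per genotype. Thinned to 1000 UMIs, Nr4a1 in marginal zone B cells was at 0.14 (-0.30 to 0.57). The 4 lower Nr4a2 values had intervals that include 0 when thinned. They were -0.17 (-0.45 to 0.12) in B, -0.51 (-1.06 to 0.02) in follicular B, -0.38 (-1.42 to 0.58) in marginal zone B and -0.11 (-0.59 to 0.35) in NK cells. In T cells without a CD4 or CD8 gate thinned Nr4a2 was at 0.52 (0.19 to 0.85).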

How the results depend on the processing

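The alternatives counted here cover all kept, B and T cells only. Of their 219 values, 186 stayed within their counting interval or within 1.5 times the count. Another 33 moved, and 0 turned the sign of a called difference. In smaller classes, which are not in this count, thinning did turn some. Among them were Nr4a1 in marginal zone B cells, from -0.40 to 0.14, and Nr4a3 in monocytes, from -1.23 to 0.10. Calls were also lost: under 117 alternatives to the 10 called values of all, B and T cells, 12 fell within the limit. Of these 6 were Nr4a2 in all cells, with -0.28 under TMM factors, -0.28 without immunoglobulin genes and -0.29 with weighted clusters besides those below. Another 4 were Egr2 in T cells, at -0.32 thinned, -0.23 with equal weight, -0.10 at a mitochondrial limit of 5% and -0.30 without the highest cell of each library. In the other direction, 6 of 93 alternatives to values within the limit went past it. They were Nr4a1 in B cells, thinned and with equal weight, Nr4a1 in all cells with equal weight, and Egr2 in all cells. Egr2 had -0.32 with at least 1000 UMIs and 500 genes, -0.35 thinned and -0.32 without the highest cell of each library. Nr4a3 ran from -1.08 to -0.63 in all cells, from -0.76 to -0.66 in B cells and from -0.77 to -0.60 in T cells. Egr1 ran from -0.61 to -0.39, from -0.66 to -0.35 and from -0.81 to -0.64. The values that moved follow, and the cause was not tested. A mitochondrial limit of 5%, which kept 6381 knock-in and 5541 wild-type cells, gave -0.0081 for Nr4a1, -0.50 for Nr4a2, -1.08 for Nr4a3 and -0.61 for Egr1 in all cells, and 0.026 for Nr4a1 and -0.66 for Egr1 in B cells. Thinning gave 0.29 for Nr4a1, -0.027 for Nr4a2, -0.64 for Nr4a3 and 0.18 for Egr3 in all cells, 0.36 for Nr4a1, -0.17 for Nr4a2 and 0.21 for Egr3 in B cells, and 0.30 for Nr4a2 and -0.15 for Egr3 in T cells. Equal weight for each cell gave 0.32, -0.21, -0.63 and 0.063 for Nr4a1, Nr4a2, Nr4a3 and Egr3 in all cells, and 0.37 and 0.25 for Nr4a1 in B and T cells. For Nr4a1 in all cells, TMM factors gave 0.11 and a total without immunoglobulin genes 0.10. Gated classes weighted to their mean share gave 0.13 for Nr4a1, -0.24 for Nr4a2 and -0.58 for Egr1 in all cells. Clusters in place of gates gave 0.22 for Nr4a1 in B cells. Weighted clusters, chosen after seeing the data, gave 0.12 for Nr4a1 and -0.65 for Nr4a3 in all cells and 0.25 for Nr4a1 in T cells. Without the filter on mean CPM, 5795, 5000 and 4212 genes were past the limit in all, B and T cells, against 2457, 2363 and 2169. No paired analysis was possible because each genotype has 1 library, and for the same reason no library could be left out. Depth limits Egr2, Egr3 in T cells, Nr4a3 in monocytes and the classes under 100 cells.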

Other observations

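Cells that no gate took, 398 in the knock-in and 325 in the wild-type library, held 114 CPM of Nr4a3 in the knock-in and 291 CPM in the wild-type library (log2 ratio -1.35, -1.64 to -1.06). Nr4a2 in these cells was also lower (-0.80, -1.11 to -0.48), and Nr4a1 was at -0.15 (-0.41 to 0.11).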
